A study of Gallus gallus with 8 samples.

Results

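Bird sex is set by the chromosomes Z and W: males carry a pair of Z chromosomes, and females carry a single Z together with a W. The trachea libraries described here were divided by the level of gga-miR-2954, a microRNA (miRNA) whose hairpin lies on Z and which is known from zebra finch and chicken to be more abundant in males. Of the 6 small RNA libraries, 2 held gga-miR-2954 at under 1000 CPM (its count over the library's total of miRNA counts, times 1000000) and are called miR-2954-low, and the other 4 are called miR-2954-high. The low libraries were H2S library 1 and control library 2, and the high libraries were H2S libraries 2 and 3 and control libraries 1 and 3. The series holds 8 libraries in all, the remaining 2 being mRNA libraries. The labels state no sex for any sample, so the division rests on a measured level and is not a labelled group.

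The samples were tracheas of chickens aged 42 days. The H2S group breathed hydrogen sulfide, at 3.5 to 4.5 mg per kg in weeks 0 to 3 and at 19.5 to 20.5 mg per kg in weeks 4 to 6, and the control group was kept in a chamber to which none was added. The labels give no breed and do not say that samples came from separate birds, so p-values measure the spread between these libraries, which may in part be technical. Each treatment group held 1 low and 2 high libraries, so treatment and miR-2954 class could be fitted together.

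MiRNAs are short RNAs cut from hairpin transcripts, with a 5p and a 3p arm, and they repress messenger RNAs that pair with the seed, bases 2 to 8 of the mature strand. In birds most genes on Z are only partly balanced between the sexes, so a gene with a copy on Z alone tends to be expressed at a higher level in males, whereas a gene found on W alone is transcribed in females. The mature sequences that the results below turn on are given as the deposited miRNA file lists them, in DNA letters from 5′ to 3′ with the seed in capitals. The first sequence defined the classes, the next pair forms the miR-7 family, and the others belong to hairpins on Z that lie side by side.
gga-miR-2954: cATCCCCAttccactcctagca
gga-miR-7b: tGGAAGACtagtgatttttgtt
gga-miR-7: tGGAAGACtagtgattttgttg
gga-miR-23b-3p: aTCACATTgccagggattacc
gga-miR-27b-3p: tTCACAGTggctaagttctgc
gga-miR-24-3p: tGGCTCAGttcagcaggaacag
gga-miR-449a: tGGCAGTGtatgttagctggt
gga-miR-449b-5p: aGGCAGTGtgctgttagcggctg
gga-miR-449c-5p: tGGCAGTGcgtgttagctggctgt
gga-miR-7 and gga-miR-7b have the same seed and are identical over their first 18 of 22 bases. The 3 miR-449 forms also share a seed. No other mature miRNA of the 994 in the file carries the seed of gga-miR-2954.

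The small RNA libraries held between 15239214 and 22718151 miRNA counts, and between 807 and 903 of the 994 mature miRNAs had a count in each. None of the 6 pairs of libraries within a treatment group agreed within sampling noise. Hairpins were placed on chromosomes by name with the RefSeq gene table of assembly GRCg7b, which matched 943 of the 994 mature miRNAs (94.9%). The build behind the deposited files is not given in the sources used here, so only the chromosome is printed and no coordinates are.

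gga-miR-2954 stood at 283 CPM in H2S library 1 and 473 CPM in control library 2. In the high libraries it stood at 1572 and 1693 CPM in H2S libraries 2 and 3, and at 3536 and 2686 CPM in control libraries 1 and 3. The level nearest the limit from below was 473 CPM and the level nearest from above was 1572 CPM. These values chose the classes and are given as a description with no test. Among the high libraries both control libraries lay above both H2S libraries, and among the low libraries the control library again lay above the H2S library.

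gga-miR-7b, which the RefSeq table places on W alone, had the opposite pattern. On the CPM scale adjusted by edgeR's TMM factors, which is used for every miRNA level in CPM from here on, it stood at 619 CPM in H2S library 1 and 787 CPM in control library 2. In the high libraries it stood at 5.97 and 2.68 CPM in H2S libraries 2 and 3, and at 3.48 and 7.48 CPM in control libraries 1 and 3. The classes did not overlap, and 10007 and 14197 counts in the low libraries faced between 49 and 120 counts in the high ones. The fitted difference was 7.16 on the log2 scale (SE 0.41), a 144-fold higher level in the low libraries, with an edgeR quasi-likelihood adjusted p of 0.000205. Within the H2S group alone the log2 difference was 7.09, and within the control group it was 7.13. gga-miR-7b was named as a second marker of the division with its values known, so its p is not independent evidence.

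**Figure D1:**
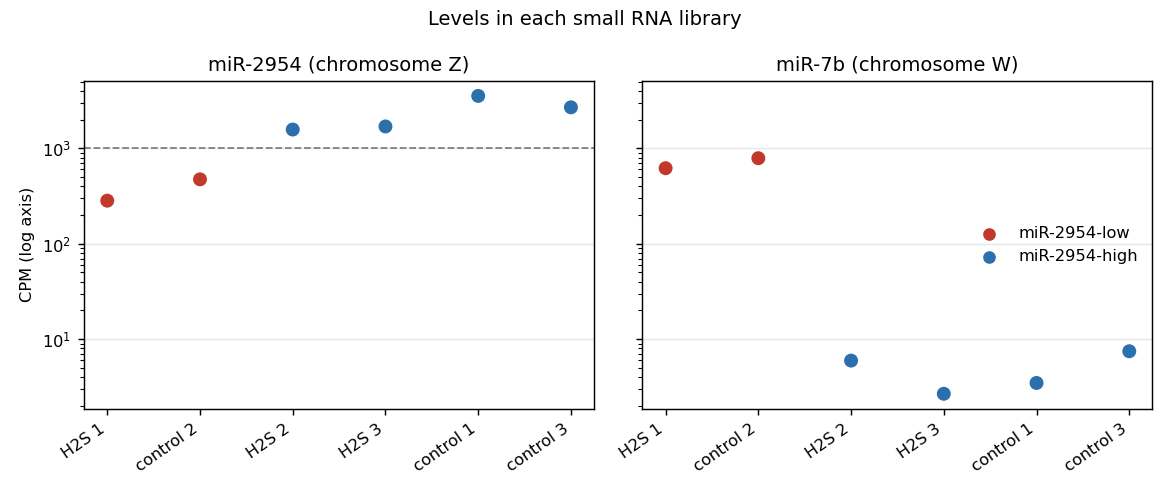
Level of gga-miR-2954 (left, total-count CPM, with the 1000 CPM limit as a dashed line) and of gga-miR-7b (right, TMM-scaled CPM) in each of the 6 small RNA libraries, on a log axis. Red points are the miR-2954-low libraries and blue points the miR-2954-high libraries. gga-miR-7b is at 619 and 787 CPM where gga-miR-2954 is under 1000 CPM, and at 7.48 CPM or less elsewhere.

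Because gga-miR-7 and gga-miR-7b differ only near their 3′ ends, counts could be split between them, and how the authors assigned such reads is not given in the sources used here. gga-miR-7, a miRNA of neuroendocrine cells in many animals, has hairpins on chromosomes 10, 28 and Z. It stood at 730 and 798 CPM in the low libraries and at 1306, 911, 1261 and 1331 CPM in H2S libraries 2 and 3 and control libraries 1 and 3. On this scale it was lower in both low libraries than in any high one. On total-count CPM control library 2 lay above H2S library 3. The log2 difference of gga-miR-7 was -0.65 (SE 0.22), which did not pass the threshold (edgeR adjusted p = 0.383). gga-miR-7b made up 45.9% of the summed gga-miR-7 and gga-miR-7b counts in H2S library 1 (exact 95% binomial interval 45.2 to 46.5%) and 49.7% in control library 2 (49.1 to 50.2%). In the high libraries its share lay between 0.275% and 0.559%. These intervals cover counting error only. Summed over both forms, the family stood at 1349 and 1585 CPM in the low libraries and at 1312, 914, 1264 and 1339 CPM in the high libraries. On this TMM scale both low libraries lay above all 4 high ones, the lower of them by a small margin. As a share of all counts the classes overlapped. H2S library 1 at 0.130% lay below control libraries 1 and 3 at 0.137% and 0.140%.

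Across all mature miRNAs, 418 passed edgeR's filter on low counts and were compared between the classes with treatment as a covariate, leaving out gga-miR-2954. At an adjusted p of 0.05, 2 of the 418 were called (0.478%), gga-miR-7b and gga-miR-6606-5p, both higher in the low libraries. None was called lower (0.00%). Before adjustment 48 miRNAs had p under 0.05, where 20.9 would be reached by chance in both directions together. Of the 48, 30 were higher (7.18%) and 18 lower (4.31%) in the low libraries. That balance depended on the scaling, with 44 higher and 11 lower under total counts, 22 and 22 under upper-quartile scaling, and 18 higher and 22 lower with DESeq2. DESeq2 called 6 at the adjusted threshold, of which 2 were higher and 4 lower, and all 4 were miRNAs of Z. The median log2 difference over all tested miRNAs was 0.03, and 201 of 418 (48.1%) were below 0. Of the 10 miRNAs with the smallest p, 5 had their hairpin on Z, and of the first 20, 9 did. Among all 418 tested, 22 had all their hairpins on Z. The 5 included both arms of gga-miR-2131, and gga-miR-449b-3p, which had 4 and 9 counts in the low libraries.

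The tested miRNAs of Z mostly had lower levels in the low libraries, by differences that did not pass the adjusted threshold of edgeR, although DESeq2 called 4 of them. Besides gga-miR-2954, 53 mature miRNAs had all their hairpins on Z. Of these, 22 passed the filter, coming from 15 hairpins, and the other 31 were not tested, none having more than 18 counts in a library. The 31 did not share a direction. gga-miR-1456-3p stood at 0.371 and 0.444 CPM in the low libraries against 0.102 to 0.314 CPM. gga-miR-1556 stood at 0.185 and 0 CPM against 0.109 to 0.921 CPM. The filter keeps a miRNA that is well counted in the high libraries alone, so the 22 are not all members. None of the 22 was called by edgeR. Their median log2 difference was -0.83, from -2.65 to 0.68, and 20 of 22 were below 0. The lowest of these, gga-miR-449b-3p, reached 10 counts only in the high libraries, as did gga-miR-6565-3p. At 10 counts or more in every library 17 Z miRNAs were tested, with 16 below 0 and a median of -0.82. In 14 of the 22 (63.6%) both low libraries lay below all 4 high ones, where this held for 26 of all 418 tested miRNAs (6.22%). gga-miR-449b-3p and gga-miR-6565-3p are among the 14. How many remain at 10 counts or more in every library was not counted. The reverse, both low libraries above all 4 high ones, held for 46 of the 418 (11.0%). Of these, 44 had hairpins on other chromosomes only, near the share of such miRNAs among all tested, 377 of 418. None was among the 22 of Z, which are a small part of the 418. Overlap here and throughout was read on TMM-scaled CPM. The TMM factor was 1.18 for control library 2, against 0.885 and 0.879 for H2S libraries 2 and 3. On total-count CPM the classes overlapped for gga-miR-24-3p, gga-miR-27b-5p, gga-miR-449b-5p, gga-miR-449c-3p and gga-miR-449c-5p, all among the 14. The share of all 418 on that scale was not counted. The Z miRNAs made up 13 of the 18 miRNAs with an unadjusted p under 0.05 and a lower level. Most of the 14 without overlap are arms of the adjacent miR-23b, miR-27b and miR-24 hairpins, the adjacent miR-449 hairpins or miR-2131. They are therefore not independent members. Among the 377 tested miRNAs with hairpins on other chromosomes only, 9 were lower without overlap (2.39%), 3 had such a p, and the median log2 difference was 0.05.

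The Z miRNAs with higher mean counts had the same direction. At a mean of at least 10 CPM there were 10 Z miRNAs, all 10 below 0 with a median of -0.87. On the TMM scale 8 of them were without overlap. Among all 162 tested miRNAs of that level the median was -0.06 and 12 (7.41%) were lower without overlap. Summed, the Z miRNAs took 0.987% and 0.997% of all counts in the low libraries, and between 1.46% and 2.10% in the high libraries. gga-miR-27b-3p held most of this sum in every library, so the sum mainly restates that miRNA.

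**Figure D2:**
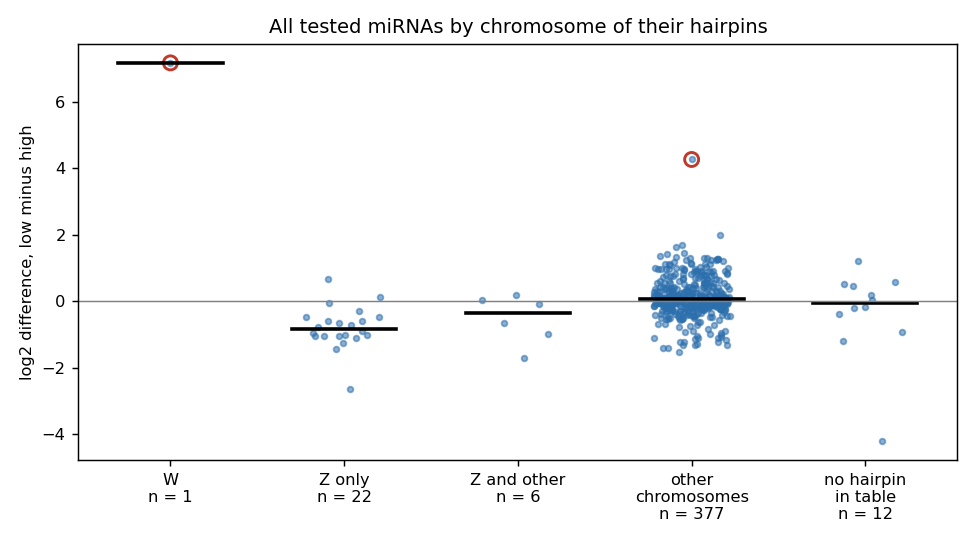
Log2 difference between miR-2954-low and miR-2954-high libraries for each of the 418 tested miRNAs, grouped by the chromosome of their hairpins. Each point is a miRNA, black lines are medians, and red rings mark the 2 miRNAs with an edgeR adjusted p under 0.05. The 22 miRNAs of Z lie around a median of -0.83 and the 377 of other chromosomes around 0.05.

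The hairpins of gga-miR-23b, gga-miR-27b and gga-miR-24 follow each other on Z with no other gene between them in the RefSeq order. This cluster is conserved in vertebrates and has been studied in mammals for its part in blood vessel growth. gga-miR-27b-3p, its most abundant arm here, stood at 7331 and 5697 CPM in the low libraries and at 12830, 16422, 13847 and 10670 CPM in H2S libraries 2 and 3 and control libraries 1 and 3. The level in the high libraries was 2.07 times that in the low ones, with a log2 difference of -1.05 (SE 0.21, edgeR adjusted p = 0.163) and no overlap. Within the H2S group the difference was -0.99, and within the control group it was -1.09.

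gga-miR-23b-3p stood at 1491 and 1263 CPM in the low libraries and at 1932, 2512, 2733 and 2309 CPM in the high ones, a log2 difference of -0.78 (SE 0.23, edgeR adjusted p = 0.276). gga-miR-24-3p stood at 984 and 1060 CPM against 1070, 1349, 1841 and 1575 CPM, a difference of -0.49 (SE 0.22, edgeR adjusted p = 0.425). Neither overlapped on the TMM scale, although for gga-miR-24-3p the nearest libraries, control 2 at 1060 and H2S 2 at 1070 CPM, almost met. On total-count CPM the classes overlapped for gga-miR-24-3p. Without control library 2 the differences were -0.50 for gga-miR-23b-3p and -0.22 for gga-miR-24-3p. With gga-miR-1a-3p as a covariate they were -0.52 and -0.25. The other arms of the 3 hairpins, gga-miR-27b-5p, gga-miR-24-5p and gga-miR-23b-5p, differed by -0.58, -0.88 and -0.61, the last with overlap. On total-count CPM gga-miR-27b-5p overlapped too. The arms of a hairpin come from 1 transcript, so these 6 values are not independent of each other.

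The hairpins of gga-miR-449a, gga-miR-449b and gga-miR-449c also lie next to each other on Z. In mammals and frogs this family acts with miR-34b and miR-34c in the formation of multiciliated cells, which line the airway. gga-miR-449a stood at 252 and 287 CPM in the low libraries and at 474, 527, 647 and 523 CPM in the high ones. The log2 difference was -1.01 (SE 0.21, edgeR adjusted p = 0.167), nearly the same within H2S (-0.99) and within control (-1.02). gga-miR-449b-3p had the lowest difference of the 22, -2.65 (SE 0.63, edgeR adjusted p = 0.248), on small counts of 4 and 9 in the low libraries against 26 to 61 in the high ones. gga-miR-449c-3p, gga-miR-449b-5p and gga-miR-449c-5p differed by -1.05, -0.66 and -0.72. On the TMM scale the low libraries lay below every high library in all 5. On total-count CPM the classes overlapped for gga-miR-449b-5p, gga-miR-449c-3p and gga-miR-449c-5p.

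The other ciliated-cell miRNAs did not follow the miR-449 forms. gga-miR-34b-5p, from chromosome 24, stood at 10633 and 7553 CPM in the low libraries and at 13827, 9220, 6609 and 6402 CPM in the high ones. The classes overlapped and the log2 difference was 0.05 (SE 0.22). gga-miR-34c-5p differed by 0.03 (SE 0.22). Among the 9 tested miRNAs of the multiciliated list, the 5 without overlap on the TMM scale were the 5 miR-449 forms of Z. All were lower, so 5 of 9 (55.6%) were lower without overlap, against 6.22% of all tested miRNAs. These 5 are also counted among the 14 such miRNAs of Z.

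gga-miR-2131, whose hairpin is separated from that of gga-miR-2954 by MIR1583 and NCBP1 in the RefSeq order, was lower on both arms, by factors similar to each other. gga-miR-1583, from the hairpin in between, was not tested and had 5 and 8 counts in the low libraries against 0 to 4 in the high ones. gga-miR-2131-3p stood at 28.1 and 26.3 CPM in the low libraries and at 42.5, 51.1, 60.2 and 58.1 CPM in the high ones, a log2 difference of -0.95 (SE 0.23, edgeR adjusted p = 0.248). gga-miR-2131-5p differed by -1.03 (SE 0.28, edgeR adjusted p = 0.276). gga-miR-1416-5p, the fifth most abundant of the Z miRNAs tested, stood at 62.9 and 41.9 CPM against 61.4, 99.9, 164 and 122 CPM. H2S library 1 there lay level with H2S library 2, so the classes overlapped, and the difference of -1.01 (SE 0.40) had an edgeR adjusted p of 0.423. It was -0.27 without control library 2, -1.76 without H2S library 1 and -0.38 with gga-miR-1a-3p as a covariate.

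The Z miRNAs were not uniform. gga-miR-31-5p, studied in mammals in skin epithelium, stood at 4.76 and 6.43 CPM in the low libraries and at 4.43, 5.31, 10.4 and 2.95 CPM in the high ones, a log2 difference of -0.06 (SE 0.47). Its other arm, gga-miR-31-3p, differed by 0.13, and gga-miR-6651-5p by 0.68 (SE 0.72), these being the 2 Z miRNAs above 0. In all, 17 of the 22 were lower in the low library within both treatment groups, where this held for 104 of all 418 tested miRNAs. The median difference was -0.50 within the H2S group and -1.01 within the control group.

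**Figure D3:**
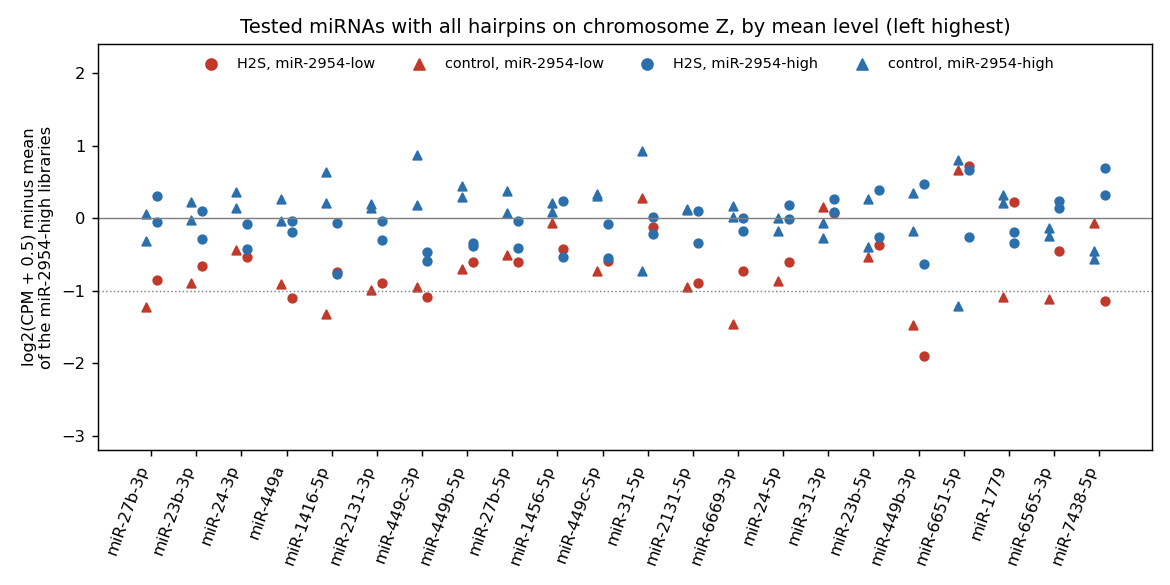
Each of the 22 tested miRNAs of Z in every library, as log2 of CPM plus 0.5 minus the mean of the 4 miR-2954-high libraries, ordered by mean level. Red marks miR-2954-low and blue miR-2954-high libraries, with circles for H2S and triangles for control. The dotted line is at -1. Most red symbols lie below 0, many of them short of that line. Red symbols of gga-miR-31-5p and gga-miR-6651-5p are among those that do not lie below 0.

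For 6 tested miRNAs the RefSeq table gives a hairpin on Z and another elsewhere, and their mature counts cannot be divided between the copies. Their median log2 difference was -0.36, with 4 of 6 below 0. gga-miR-101-3p, with copies on Z and 8, stood at 6610 and 3548 CPM in the low libraries and at 7182, 6316, 3379 and 3320 CPM in the high ones, a difference of 0.03 (SE 0.17). gga-miR-9-5p, a miRNA of neural tissue, differed by 0.19, and gga-miR-204 by -0.07. gga-miR-122-5p, the main liver miRNA, is placed on both Z and W and stood at 10.2 and 8.87 CPM against 11.9, 15.8, 16.2 and 35.8 CPM, without overlap (difference -0.97, SE 0.43, edgeR adjusted p = 0.425). That difference was -0.36 without control library 2, -0.62 without control library 3 and -1.56 without H2S library 1. The other arm, gga-miR-122-3p, differed by -1.69 (SE 1.03) on at most 12 counts in a library. That arm reached 10 counts only in H2S library 3 and control library 1, which are high libraries. The miR-122 arms share their hairpins, so they are not independent members of the 4 below 0.

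Outside Z and W the clearest difference was that of gga-miR-6606-5p, from chromosome 1, with the sequence gAGGAGCGggaggagcggga. It had 138 and 43 counts in the low libraries, or 8.53 and 2.38 CPM, and 3, 4, 10 and 2 counts in the high ones, or 0.149, 0.219, 0.512 and 0.126 CPM. The classes did not overlap, and the low level was 19.2 times the high one, a log2 difference of 4.26 (SE 0.58, edgeR adjusted p = 0.0223). gga-miR-6606-5p passed the low-count filter only through the low libraries, where it is high. It was not tested at 10 counts or more in every library, so its alternatives number 17. H2S library 1 held most of its counts. The call was lost without that library (log2 difference 2.81, edgeR adjusted p = 0.180), and also when any of 3 high libraries was left out, H2S 2 (0.186), H2S 3 (0.166) or control 3 (0.310), and the adjusted p ranged from 2.78e-10 to 0.310 over all alternatives.

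The remaining miRNAs of the 10 with the smallest p were higher in the low libraries and did not pass the threshold. gga-miR-3540 stood at 2.60 and 1.497 CPM against 0.895, 0.711, 0.461 and 0.440 CPM, a log2 difference of 1.69 (edgeR adjusted p = 0.163). gga-miR-6661-5p differed by 1.35 (edgeR adjusted p = 0.248). gga-miR-142-3p, a miRNA of blood-forming cells, stood at 243 and 320 CPM in the low libraries and at 156, 133, 160 and 199 CPM in the high ones, without overlap (0.79, SE 0.20, edgeR adjusted p = 0.276).

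The 5 most abundant miRNAs did not separate the classes. gga-miR-148a-3p, gga-miR-140-3p, gga-miR-199-3p and gga-miR-26a-5p differed by 0.05, -0.13, -0.28 and -0.10 on the log2 scale, each with overlap. gga-miR-1a-3p, a miRNA of muscle, stood at 89955 and 16631 CPM in the low libraries and at 47413, 147056, 125966 and 94848 CPM in the high ones, a difference of -1.22 (SE 0.71, edgeR adjusted p = 0.580) that was 0.0055 without control library 2 and -2.72 without H2S library 1. Control library 2 was the lowest of the 6, and H2S library 1 lay within the range of the high libraries.

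Muscle miRNAs were at their lowest in 1 of the 2 low libraries. The skeletal muscle list of 12 tested miRNAs took 9.56% of counts in H2S library 1 and 2.18% in control library 2, and 4.60% to 14.96% in the high libraries. Its median log2 difference between the classes was -1.14, with 11 of 12 below 0. Within the H2S group alone the median was 0.18. Within the control group it was -2.59, where gga-miR-499-5p differed by -2.73. None of the 12 was called. In bulk tissue, fewer cells of a type and less RNA per cell cannot be told apart. With gga-miR-1a-3p as a further covariate the median of the 22 Z miRNAs was -0.57, with 19 below 0. Without control library 2 it was -0.49, again with 19 below 0, and without H2S library 1 it was -1.06, with 19 below 0. gga-miR-7b differed by between 6.94 and 7.44 over the 18 alternatives tried, and was called in each.

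The lists of cartilage, epithelial, blood, erythroid and endothelial miRNAs had medians between -0.20 and 0.48. The cartilage list, gga-miR-140-5p and gga-miR-140-3p, took 12.9% and 13.7% of counts in the low libraries and 10.2% to 16.2% in the high ones, with a median difference of -0.01. The 9 epithelial miRNAs had a median of -0.03 and gga-miR-200b-3p among them differed by 0.04. The 10 blood and immune miRNAs had a median of 0.18. They took 1.37% and 2.28% of counts in the low libraries against 0.952% to 1.96% in the high ones. On the TMM scale gga-miR-142-3p and gga-miR-142-5p (0.55) were higher without overlap, 2 of 10 where this held for 46 of all 418 tested (11.0%). On total-count CPM H2S library 1 lay below control library 1 for gga-miR-142-5p. The 3 erythroid miRNAs had a median of 0.48, and gga-miR-451 among them was highest in H2S library 2, a high library, and differed by -0.18 without control library 2 and by 1.09 without H2S library 1. The 2 endothelial miRNAs had a median of -0.20, and gga-miR-375, a neuroendocrine miRNA, differed by 0.10. None of these miRNAs was called. What part these differences in cell types have in the differences between the classes was not tested. The covariate and left-out fits given above do not test it, as gga-miR-1a-3p was lowest in control library 2, itself a low library.

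**Figure D4:**
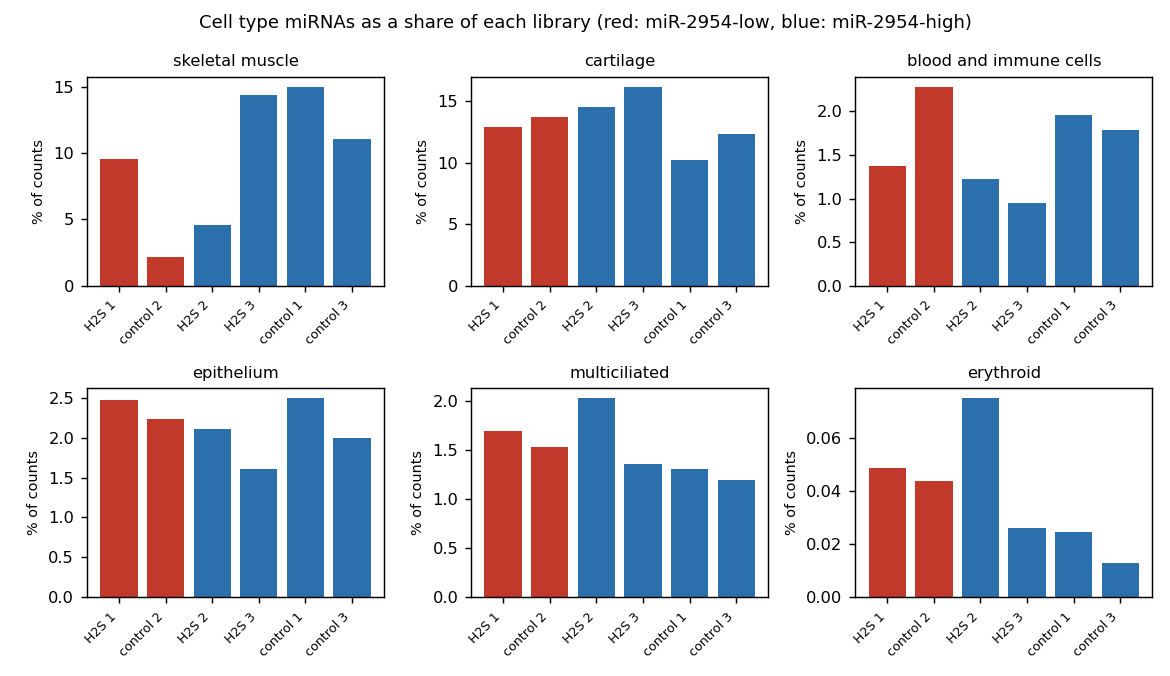
Share of all miRNA counts taken by 6 lists of cell type miRNAs in each library, in percent, with a separate vertical axis for each list. Red bars are miR-2954-low and blue bars miR-2954-high libraries. The skeletal muscle share is lowest, 2.18%, in control library 2, and the cartilage share lies between 10.2% and 16.2% throughout.

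Whether the class difference changed with treatment was tested as an interaction. None of the 418 miRNAs passed (0.00%), with a smallest edgeR adjusted p of 0.410 and 38 miRNAs at an unadjusted p under 0.05. Each treatment group supplies a single low library to this test. With class as a covariate, the H2S against control comparison called 1 miRNA of 418 (0.239%), with 75 at an unadjusted p under 0.05. This was gga-miR-202-5p, a miRNA of the gonads, at 28, 44 and 50 counts in H2S libraries 1 to 3 and 2 counts in each control library. At 10 counts or more in every library it was not tested, and the treatment comparison then called 0. gga-miR-202-5p passed the low-count filter only through the H2S libraries, where it is high. Its log2 difference was 4.22 (SE 0.41, edgeR adjusted p = 0.00165), whereas between the classes it differed by -0.46 (SE 0.36), or by -0.02 without H2S library 1 and -0.29 without H2S library 3. The treatment call was lost without control library 3 (edgeR adjusted p = 0.0986) and with limma-voom (adjusted p = 0.110).

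**Figure D5:**
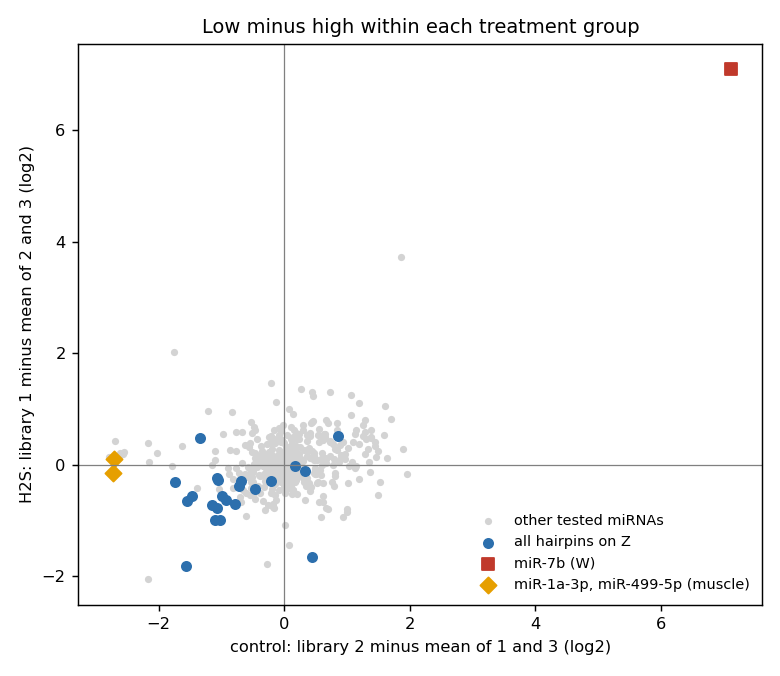
Log2 difference, with a pseudocount of 0.5 CPM, of the low library from the mean of the 2 high libraries within the control group (horizontal) and within the H2S group (vertical), for every tested miRNA. gga-miR-7b lies at 7.13 and 7.09, most of the 22 Z miRNAs lie below 0 on both axes, and gga-miR-1a-3p and gga-miR-499-5p, the muscle miRNAs marked, lie far below 0 on the control axis and near 0 on the H2S axis.

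The 2 mRNA libraries, both numbered 3, gave a separate reading of W genes. The small RNA libraries numbered 3 are both miR-2954-high, but the labels do not say whether libraries of the same number and group share a bird. HINTW, SPINW and ATP5A1W, genes of W, had 0 counts in both, among totals of 20839798 for H2S and 18875586 for control, which allows up to 0.144 and 0.159 CPM at 3 counts. Their counterparts on Z were well counted, SPINZ at 3929 and 4112 counts and ATP5A1 at 6566 and 9310 counts (H2S first, then control). HINT1 had 720 and 619 counts. HINTW is present in many near-identical copies on W, and reads shared between copies may have been dropped by the authors' counting, so its 0 is uncertain.

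In all 45 genes of the mRNA table matched to W in RefSeq, with 4463 counts over both libraries. Most came from NEDD4L (1876 and 2304 counts), MBD2 (100 and 62) and SKA1 (66 and 25), whose placement on W rests on a shared symbol alone. Without these 3 genes, left out after their values were seen, the other 42 held 19 counts under H2S and 11 under control, or 0.912 and 0.583 CPM. LOC101750268, with 11 and 3 counts, and ENS-1, with 1 and 4, were the most counted among them. The 868 genes matched to Z took 4.61% and 4.75% of counts. With 1 mRNA library per group and none known to come from a miR-2954-low trachea, no comparison of classes was made on mRNA.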

How the data were processed

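Trachea small RNA was sequenced in 6 libraries and mRNA in 2. The authors deposited raw read counts per mature miRNA and per gene; per the submitters' processing notes small RNA was mapped with BWA and mRNA with HISAT2, versions and build not being given in the sources used here. Total RNA was extracted with Trizol and small RNA purified with miRNeasy, per the labels' protocols. Library class was set on CPM, a miRNA's count over the library's total. From the deposited counts, edgeR 4.0.16 (R 4.3.3; TMM, filterByExpr, glmQLFit with bias-adjusted deviance, glmQLFTest) fitted class and treatment over 418 miRNAs, with Benjamini-Hochberg adjustment at 0.05. The step was tested on simulated data. SE is the log2 difference over the root of F. Alternatives were other scalings, DESeq2 1.42.0, limma-voom 3.58.1, other filters, covariates and left-out libraries. gga-miR-2954 was left out of the test. miRNAs named are those called, the 10 with smallest p, the 6 most abundant of Z, the 5 most abundant, the leading members of each list, and family members; other Z, W and multi-copy miRNAs were named to account for the members. The members and lists were chosen with earlier results of these data known.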

Additional observations from a re-analysis of the deposited data

Results flagged for a closer look

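In the 4 miR-2954-high libraries, 3 of the miRNAs named had 1 library far from the other 3, by the gap to its nearest neighbour over the whole range (Dixon's limit for 4 samples is 0.829). For gga-miR-2131-5p this ratio was 0.959, with H2S library 2 at 4.92 CPM and the highest at 6.98 CPM. For gga-miR-140-5p it was 0.878, with control library 1 at 3515 CPM and the highest at 6092 CPM. For gga-miR-7 it was 0.833, with H2S library 3 at 911 CPM and the highest at 1331 CPM. Chance flags such a sample in about 1 in 20 groups, so some flags would be reached by chance among the many miRNAs named.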

How the results depend on the processing

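The class comparison called 2 miRNAs, 6 with DESeq2 (2 higher, 4 lower), 1 with limma-voom, 1 with edgeR's robust legacy fit, 1 at 10 counts or more in every library, and 1 to 2 with a library left out. DESeq2 called gga-miR-449b-3p (adjusted p = 0.00512), gga-miR-27b-3p (0.00183), gga-miR-2131-3p (0.00398) and gga-miR-449a (0.000864) lower. Of these, gga-miR-449b-3p reached 10 counts only in the high libraries. The treatment comparison called 1, and 16 with DESeq2 (6 higher, 10 lower), 0 with limma-voom, 0 at 10 counts or more in every library, 3 with gga-miR-1a-3p as covariate, and 0 to 3 with a library left out. The replicate block, which leaves 1 residual degree of freedom, gave 35 class calls (25 higher, 10 lower) and 55 treatment calls (26 higher, 29 lower). In a check for pairing by number, same-numbered libraries had correlations of -0.35, 0.08 and 0.32, which are not correlations of whole profiles. The highest value of any H2S and control library was 0.40, between H2S library 1 and control library 2, the low libraries. The numbers are therefore not taken to pair libraries. W genes held 4463 counts, 30 without NEDD4L, MBD2 and SKA1, and 0 for names ending in W. gga-miR-6606-5p lost its call with limma-voom (adjusted p = 0.113) and the robust legacy fit (0.0973). Total-count scaling moved the median of all miRNAs by 0.14 and that of Z to -0.69. Differences near 0 changed sign. With total counts, gga-miR-140-3p was 0.011, gga-miR-26a-5p 0.045 and gga-miR-146b-5p 0.077. With upper-quartile scaling, gga-miR-148a-3p was -0.039, gga-miR-200b-3p -0.044, gga-miR-34b-5p -0.031 and gga-miR-34c-5p -0.055. gga-miR-200b-3p and gga-miR-34c-5p were -0.011 and -0.018 with DESeq2 size factors, and -0.015 and -0.023 with DESeq2. With no filter, gga-miR-148a-3p was -0.0043, gga-miR-200b-3p -0.024, gga-miR-34b-5p -0.0095 and gga-miR-34c-5p -0.033, the last -0.0074 at 10 counts or more. With the block, gga-miR-451 was -0.027, gga-miR-200b-3p -0.16, gga-miR-34b-5p -0.093 and gga-miR-34c-5p -0.12. With gga-miR-1a-3p as covariate, gga-miR-148a-3p was -0.11, gga-miR-140-5p -0.21, gga-miR-451 -0.15, gga-miR-34b-5p -0.17, gga-miR-34c-5p -0.15 and gga-miR-126-3p 0.045. With a library left out, the range was -2.72 to 0.0055 for gga-miR-1a-3p, -0.31 to 0.10 for gga-miR-140-3p, -0.20 to 0.068 for gga-miR-26a-5p, -0.053 to 0.16 for gga-miR-148a-3p, -0.25 to 0.48 for gga-miR-140-5p, -0.18 to 1.09 for gga-miR-451, -0.21 to 0.11 for gga-miR-146b-5p, -0.20 to 0.32 for gga-miR-200b-3p, -0.048 to 0.47 for gga-miR-200a-3p, -0.071 to 0.21 for gga-miR-34b-5p, -0.067 to 0.18 for gga-miR-34c-5p, -0.39 to 0.16 for gga-miR-126-3p and -0.49 to 0.021 for gga-miR-126-5p. The cause of these changes was not tested. Leaving out a low library leaves 1 against 4, so its spread is assumed like that of the others.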
